A study of Mus musculus with 12 samples.

Results

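Myt1, Myt1l and St18 encode the MYT family of zinc-finger transcription factors. Their DNA methylation was followed in mouse β cells of 2 lineages at 2 ages. The genes were taken by name, each as its GENCODE gene body in the mm39 genome build (GRCm39) plus 20 kb on either side. That rule uses no measured value, but the genes were picked with earlier results of these data known. They are 3 of 21757 protein-coding genes. Their windows held 29 of the 87689 merged hypomethylated regions (HMRs). An HMR is a stretch of CpG sites with low methylation that the authors' caller marked against the methylated genome around it, and overlapping HMRs of the 4 pools of reads were merged into 1 region. Methylation levels are the percentage of reads with a methylated C, summed over the CpGs of a region.

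MYT proteins bind DNA through clusters of zinc fingers and act largely as repressors, by recruiting the SIN3, histone deacetylase and LSD1-CoREST complexes. Myt1 is active in neural and endocrine progenitors, in a circuit with Neurog3, the master regulator of islet endocrine fate, and with the Notch target Hes1. Myt1l is best known for keeping neurons from expressing genes of other cell types, and St18, also called Myt3, is expressed in islets and in the nervous system. In mammalian cells active promoters and enhancers usually have low CpG methylation, while transcribed gene bodies are usually methylated. Methylation was the measurement here, and transcript levels were not.

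The 4 stretches printed here, each 200 bases long, show the DNA in which the results below arose. They were read from the + strand of GRCm39, on which all 3 genes are transcribed, with each CpG in capitals. The first lies where an HMR at the most upstream Myt1 start gained methylation with age. The second holds the CpG-dense part of the Myt1l start HMR, and the third an intron 1 HMR of Myt1l that was hypomethylated in libraries of adult cells alone. The last lies past the St18 start, where the HMR widened with age.
Myt1 upstream start, chr2:181405214-181405413: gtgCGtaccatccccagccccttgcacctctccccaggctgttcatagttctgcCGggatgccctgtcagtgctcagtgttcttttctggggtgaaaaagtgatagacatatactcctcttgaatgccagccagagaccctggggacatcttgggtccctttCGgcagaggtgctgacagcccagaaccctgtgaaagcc
Myt1l start HMR, chr12:29577285-29577484: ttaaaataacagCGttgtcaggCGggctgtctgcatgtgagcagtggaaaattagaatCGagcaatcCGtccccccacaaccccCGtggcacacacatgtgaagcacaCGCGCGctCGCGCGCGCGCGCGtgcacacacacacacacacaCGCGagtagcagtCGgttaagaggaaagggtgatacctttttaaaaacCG
Myt1l intron 1, chr12:29588573-29588772: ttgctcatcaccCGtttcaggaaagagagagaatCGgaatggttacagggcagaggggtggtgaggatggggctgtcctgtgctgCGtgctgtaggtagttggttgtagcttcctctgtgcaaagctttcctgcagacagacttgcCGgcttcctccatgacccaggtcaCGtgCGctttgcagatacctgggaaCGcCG
St18 past the start, chr1:6801275-6801474: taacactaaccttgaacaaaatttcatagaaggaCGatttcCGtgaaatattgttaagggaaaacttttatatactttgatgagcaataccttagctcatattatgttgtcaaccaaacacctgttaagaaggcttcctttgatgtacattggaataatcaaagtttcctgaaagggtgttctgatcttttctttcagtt

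β cells were sorted from MNYI mice. All groups carried Myt1cCre and Neurog3nCre (Ngn3nCre in the labels), which supply complementing parts of Cre recombinase, a Rosa26eYFP reporter that Cre switches on, and Ins2Apple (InsApple), an insulin reporter. eYFP+ β cells descend from progenitors in which both promoters had been active (M+N+). eYFP- β cells are the remainder (M-N+), so the lineage call depends on both Cre parts having been made in a progenitor. The groups were eYFP- and eYFP+ cells at postnatal day 2 (P2), with 2 libraries each, and at postnatal day 60 (P60), with 4 each. At P2, replicate 1 is labelled female and replicate 2 male, and at P60, replicates 1 and 3 are female and 2 and 4 male. Mice were pooled for each library. The labels call the reporter eGFP and speak of islet cells, whereas the titles speak of sorted beta-cells.

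Read counts per CpG were given for 4 pools, 1 for each subtype and stage, with a mean of 24.4 and 24.6 reads per CpG in the P2 eYFP- and eYFP+ pools and of 44.1 and 43.9 in the P60 pools. Levels therefore have no replicate error, and every interval given is a 95% Wilson interval for counting error. HMRs were also called in each of the 12 libraries, which held 38052 to 60950 HMRs covering 55.6 to 58.7 Mb at P2 and 42.7 to 46.1 Mb at P60. The P2 libraries, P60 replicates 1 and 2 and P60 replicates 3 and 4 form 3 series of library numbers, so stage and series cannot be told apart. Of 254 X-chromosome HMRs found in P60 males alone, the P2 eYFP- library labelled female had 92.5% and the one labelled male 13.4%, against 13.0% and 84.3% in eYFP+ cells. The 2 P2 eYFP- libraries thus go against their sex labels. All 3 genes are autosomal, and sex entered none of the tests. The label of β cells was checked at promoters. Levels at Ins1 and Ins2 were 7.93% and 6.70% in P60 eYFP- cells, and 10.1% and 7.01% in P60 eYFP+ cells. At P2 Ins1 was at 32.5% and 43.3% and Ins2 at 11.8% and 21.9%, eYFP- first. The other β-cell markers ranged over the 4 pools from 4.60% to 5.79% at Mafa and from 4.65% to 19.2% at G6pc2. Iapp was at 14.3% to 23.8% and Slc2a2 at 14.3% to 19.8%. Of 14 markers of other cell types, 8 were above 50% in all 4 pools, among them Gcg of α cells, Cpa1 of acinar cells, Pecam1 of endothelium and Ptprc of leukocytes. A further 3 were under 10% in all pools: Ptf1a of acinar cells, Irx2 of α cells and Hhex of δ cells. Sst of δ cells was at 18.2% to 23.8%, Ttr of α cells at 24.9% to 29.7%, and Prss1 of acinar cells, with 1 CpG, at 38.5% to 62.5%.

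Myt1 (ENSMUSG00000010505.18) spans chr2:181405125-181469590, 64.5 kb with 606 CpGs and 4 merged HMRs in its window. Myt1l (ENSMUSG00000061911.17) spans chr12:29578009-29973213, 395 kb with 3406 CpGs and 17 HMRs. St18 (ENSMUSG00000033740.19) spans chr1:6557455-6931164, 374 kb with 2075 CpGs and 8 HMRs. HMRs are given by the distance of their middle from the start of the canonical transcript, at chr2:181408809 for Myt1, chr12:29578326 for Myt1l and chr1:6800275 for St18. The HMR at +71.0 kb of Myt1 lies at the start of the neighbouring gene Pcmtd2, and that at +410 kb of Myt1l at the start of Pxdn. The antisense lncRNA Gm20208 overlaps the first 2 HMRs of Myt1l. The shortest of the 29 HMRs had 99 bp and the longest 5427 bp, and their median length was 501 bp, against 536 bp over all merged HMRs. Of the 29, 12 overlapped an HMR in every library and 6 in none, the latter having been called in pooled reads only.

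**Figure D1:**
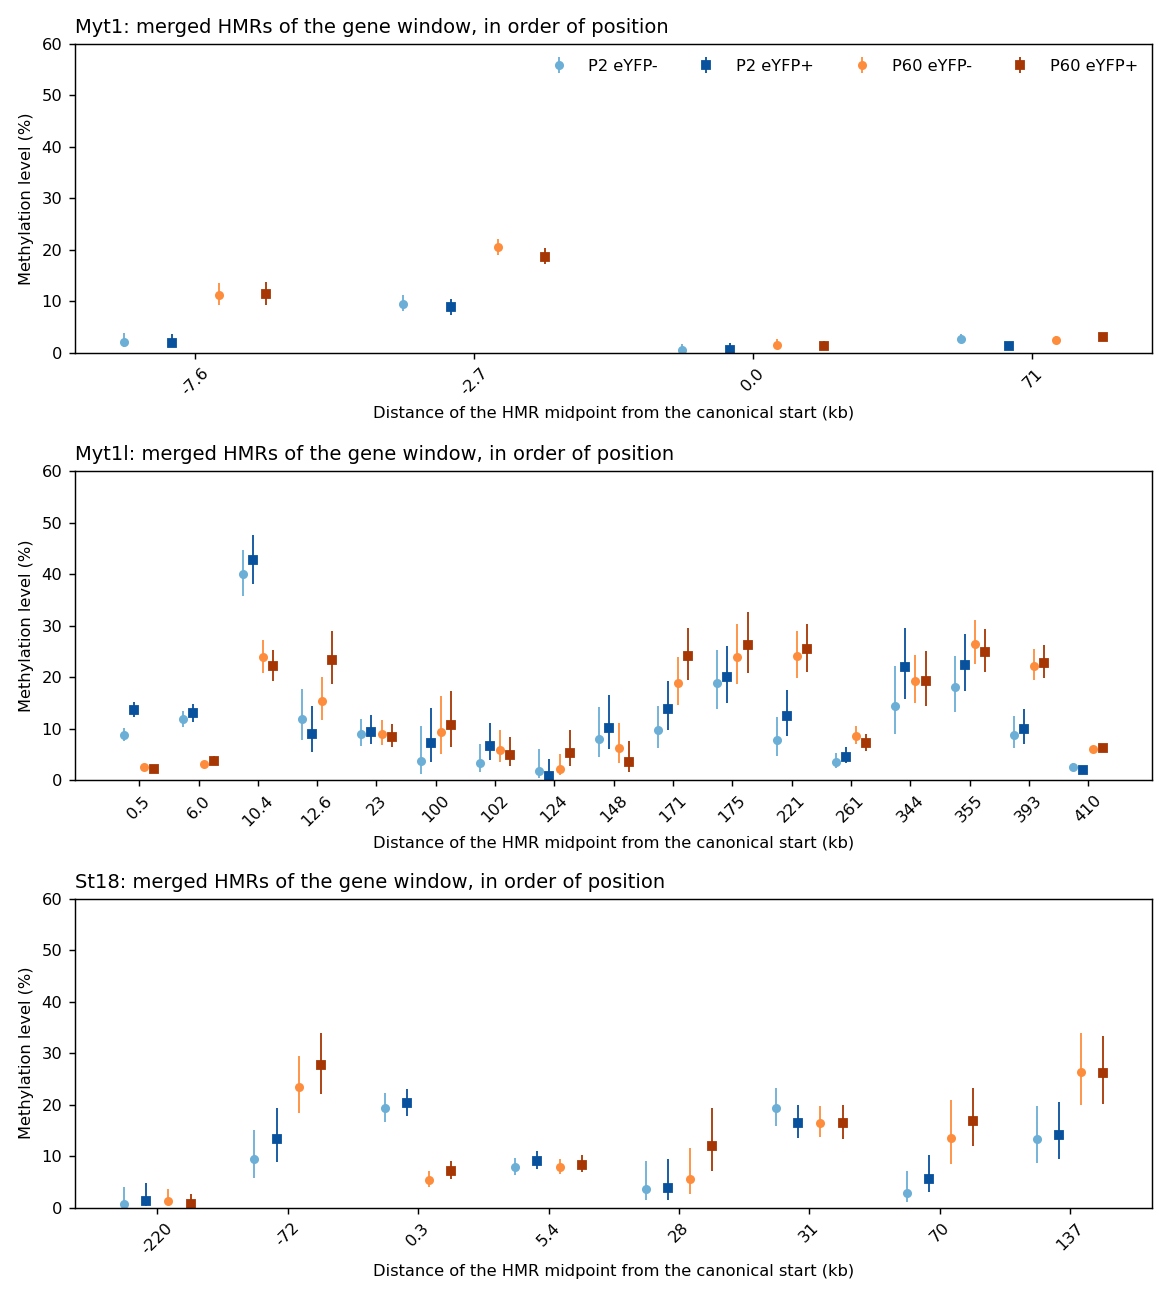
Methylation level (percent of reads) of each of the 29 merged HMRs in the windows of Myt1, Myt1l and St18, ordered by distance from the canonical start, in the 4 pools (P2 and P60, eYFP- and eYFP+). The St18 start HMR falls from 19.3% and 20.2% at P2 to 5.35% and 7.12% at P60, while the points of the 2 subtypes lie close together at most HMRs.

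The comparison of P60 with P2 asked how methylation at these genes differed between neonatal and adult β cells. The HMR at the canonical St18 start fell with age in both subtypes. By the call defined below, that at the Myt1l start fell in eYFP+ cells and that at the most upstream Myt1 start rose in eYFP- cells. In the other subtype these 2 HMRs differed in the same direction, by -6.28 percentage points at Myt1l and +9.89 at Myt1, under the 10 required. A region was called where Fisher's exact test of pooled reads (two-sided), adjusted by Benjamini-Hochberg over all merged HMRs, gave an adjusted p under 0.05 and the levels differed by at least 10 percentage points. In eYFP- cells 6 of 29 HMRs rose (background over all merged HMRs, 27.4%) and 2 fell (3.16%). In eYFP+ cells 7 rose (26.1%) and 3 fell (4.09%). The 29 had a median difference of +3.38 percentage points in eYFP- cells and of +2.56 in eYFP+ cells, against +2.84 and +2.29 over all HMRs. HMRs were called in these same pools, so a region low in some pools alone was picked on the values compared. The shares over all merged HMRs carry the same selection. The test compares pools of reads, not mice, and counts a read at every CpG it covers, so its p-values are too small. The same tests were therefore repeated on CpGs at least 100 bp apart, a setting chosen after the data had been seen.

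At Myt1, 2 HMRs cover starts of the gene. The HMR at -2.71 kb (chr2:181404969-181407236, 2268 bp, 34 CpGs) covers the most upstream start, at chr2:181405125. Its level was 9.52% (8.11 to 11.2) in P2 eYFP- and 8.81% (7.40 to 10.5) in P2 eYFP+ cells, and 20.6% (19 to 22.2) and 18.7% (17.2 to 20.3) at P60. It rose by 11.0 percentage points in eYFP- cells (Fisher's exact test, adjusted p = 6.06e-19). In eYFP+ cells the difference was 9.89 percentage points (Fisher's exact adjusted p = 1.68e-15), just under the 10 required, and 11.4 on the spaced CpGs, where it was called.

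The difference was uneven along this HMR, as parts set after seeing the values show. Over its first 500 bp the 8 CpGs were at 27.9% and 24.8% at P2 and at 53.8% and 53.5% at P60, eYFP- first. Over the next 1000 bp the level stayed between 1.06% and 2.62% in all 4 pools. Beyond these it was 6.54% and 4.75% at P2 and 12.8% and 13.9% at P60. In the printed Myt1 stretch, which lies in the first 500 bp, the CpG at position 4 was at 34.8% and 23.4% at P2 and at 77.6% and 68.3% at P60. The CpG at position 55 of the same stretch was lower in every pool, between 8.57% and 19.6%.

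The canonical start of Myt1 did not share in this. Its HMR at -0.017 kb (chr2:181408493-181409090, 598 bp, 14 CpGs, over exon 1) was at 0.619% and 0.655% at P2 and at 1.49% and 1.27% at P60, eYFP- first, with adjusted p of 0.276 and 0.520 for the stage differences. Upstream of the gene, the HMR at -7.61 kb (492 bp, 9 CpGs) was at 2.09% and 1.97% at P2 and 11.3% and 11.4% at P60. These are differences of 9.20 and 9.41 percentage points (Fisher's exact adjusted p = 1.06e-09 and 2.43e-10), under the 10 required for a call. Its last CpG, at chr2:181401440, was at 6.52% at P2 and at 40.5% at P60 in eYFP- cells, while its first 4 CpGs together had at most 2.23% in any pool. The Pcmtd2 start lay between 1.25% and 3.07% in all pools.

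At Myt1l the levels near the start were lower at P60, and the HMRs called farther along the gene were higher. The start HMR at +0.535 kb (chr12:29576148-29581574, 5427 bp, 81 CpGs) was longer than 99.5% of all merged HMRs. Its level was 8.79% (7.65 to 10.1) in P2 eYFP- and 13.7% (12.3 to 15.2) in P2 eYFP+ cells, and 2.5% (2.04 to 3.08) and 2.10% (1.67 to 2.65) at P60. It fell by 11.6 percentage points in eYFP+ cells (Fisher's exact test, adjusted p = 1.54e-61). In eYFP- cells the stage difference was -6.28 percentage points (Fisher's exact adjusted p = 1.43e-23), which is short of the 10 required. The next HMR, at +5.98 kb (2603 bp, 57 CpGs), covers further Myt1l starts in intron 1 of the canonical transcript. It was at 11.9% and 13.0% at P2 and at 3.11% and 3.80% at P60, differences of -8.78 and -9.19 percentage points.

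Parts of the Myt1l start HMR, set after seeing the values, differed in level. From the end of a run of 7 adjacent CGs to the canonical start the level was at most 2.25% in every pool. Past the canonical start, over 38 CpGs, it was 12.1% and 17.9% at P2 and 1.54% and 2.43% at P60. In the run itself, which stands in the middle of the printed Myt1l start stretch, it was 16.7% and 34.7% at P2 and 10.8% and 5.80% at P60.

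The Myt1l HMR with the largest stage difference lay in intron 1 at +10.4 kb (chr12:29588419-29589018, 600 bp, 16 CpGs). Its level was 40.1% (35.8 to 44.6) and 42.8% (38.1 to 47.7) at P2, and 23.8% (20.8 to 27.2) and 22.1% (19.2 to 25.3) at P60. It fell by 16.3 percentage points in eYFP- cells (Fisher's exact adjusted p = 4.64e-08) and by 20.7 in eYFP+ cells (adjusted p = 5.38e-12). In pooled reads this region was an HMR at P60 only, in both subtypes. Low P60 levels thus picked it, and its fall is tied to that choice. The HMR was found in none of the 4 P2 libraries, in all 4 P60 eYFP- libraries and in 2 of the 4 P60 eYFP+ libraries. Within the printed intron 1 stretch the fall was not at every CpG: the first CpG, at position 13, was at most 7.69% in any pool, while that at position 175 went from 90.9% and 91.7% at P2 to 51.1% and 51.9% at P60.

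Farther into Myt1l the called changes were rises. The HMR at +221 kb in intron 4 (480 bp, 11 CpGs) was at 7.73% and 12.4% at P2 and at 24.1% and 25.5% at P60, a rise of 16.4 and 13.0 percentage points (Fisher's exact adjusted p = 5.59e-06 and 8.75e-04). The HMR at +393 kb, near the 3' end, was at 8.81% and 9.93% at P2 and at 22.2% and 22.9% at P60, a rise of 13.4 and 12.9 (Fisher's exact adjusted p = 4.40e-07 and 6.66e-06). In eYFP+ cells alone the call was also met at +12.6 kb (from 8.97% to 23.4%, Fisher's exact adjusted p = 6.10e-04) and at +171 kb (from 13.9% to 24.2%, adjusted p = 0.0132). In eYFP- cells the HMR at +171 kb differed by +9.23 percentage points (Fisher's exact adjusted p = 0.0146), just under the 10 required. In pooled reads the regions at +12.6 kb, +171 kb and +221 kb were HMRs in every pool but P60 eYFP+. Their rises in eYFP+ cells are thus tied to how the regions were picked. Whether the stage differences differed between the subtypes was not tested. On spaced CpGs the calls ended at +393 kb in both subtypes (+4.42 and +8.0 percentage points) and at +221 kb in eYFP+ cells (+8.5). The Pxdn start was at 2.64% and 2.0% at P2 and at 6.04% and 6.35% at P60.

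At St18 the start HMR showed the clearest fall. It lies at +0.281 kb (chr1:6799199-6801912, 2714 bp, 28 CpGs) over exon 1. Its level was 19.3% (16.6 to 22.3) in P2 eYFP- and 20.2% (17.7 to 23.0) in P2 eYFP+ cells, and 5.35% (4.06 to 7.02) and 7.12% (5.64 to 8.96) at P60. It fell by 13.9 percentage points in eYFP- cells (Fisher's exact adjusted p = 4.33e-17) and by 13.1 in eYFP+ cells (adjusted p = 2.07e-15), and both calls were also made on spaced CpGs. By parts set after seeing the values, the 21 CpGs up to 500 bp past the start were at 7.08% and 7.22% at P2 and at 2.27% and 2.90% at P60. The 6 CpGs from 1000 bp past the start were at 61.5% (53.4 to 69.1) and 64.2% (56.8 to 70.9) at P2 and at 16.6% (11.6 to 23.0) and 19.7% (14.8 to 25.7) at P60. The printed St18 stretch lies in this second part, and its 2 CpGs together had 75.6% and 69.6% at P2 and 23.8% and 18.1% at P60.

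The widest St18 HMR, at +5.40 kb (chr1:6803642-6807707, 4066 bp, 33 CpGs), also covers a start of the gene and was called in neither subtype. It was at 7.82% and 9.05% at P2 and at 7.81% and 8.33% at P60 (Fisher's exact adjusted p = 1.00 and 0.689). The HMR at +31.1 kb in intron 2 lay between 16.3% and 19.3% in all pools. A further 3 short HMRs with 5 CpGs each rose in both subtypes. The HMR at -71.6 kb was at 9.43% and 13.3% at P2 and at 23.5% and 27.6% at P60, the one at +70.4 kb in intron 5 at 2.86% and 5.59%, then at 13.6% and 16.9%, and the one at +137 kb, downstream of the gene, at 13.3% and 14.0%, then at 26.4% and 26.2%. In pooled reads those at -71.6 kb and +137 kb were HMRs in P2 eYFP- cells alone. A low level in that pool thus picked them, and their rises in eYFP- cells are tied to that choice. None of the 3 short HMRs was found as an HMR in any library. On spaced CpGs 5 of their 6 calls ended, and at +70.4 kb in eYFP- cells the difference turned to -3.77 percentage points. The most upstream start of St18, at chr1:6557455, had no HMR.

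**Figure D2:**
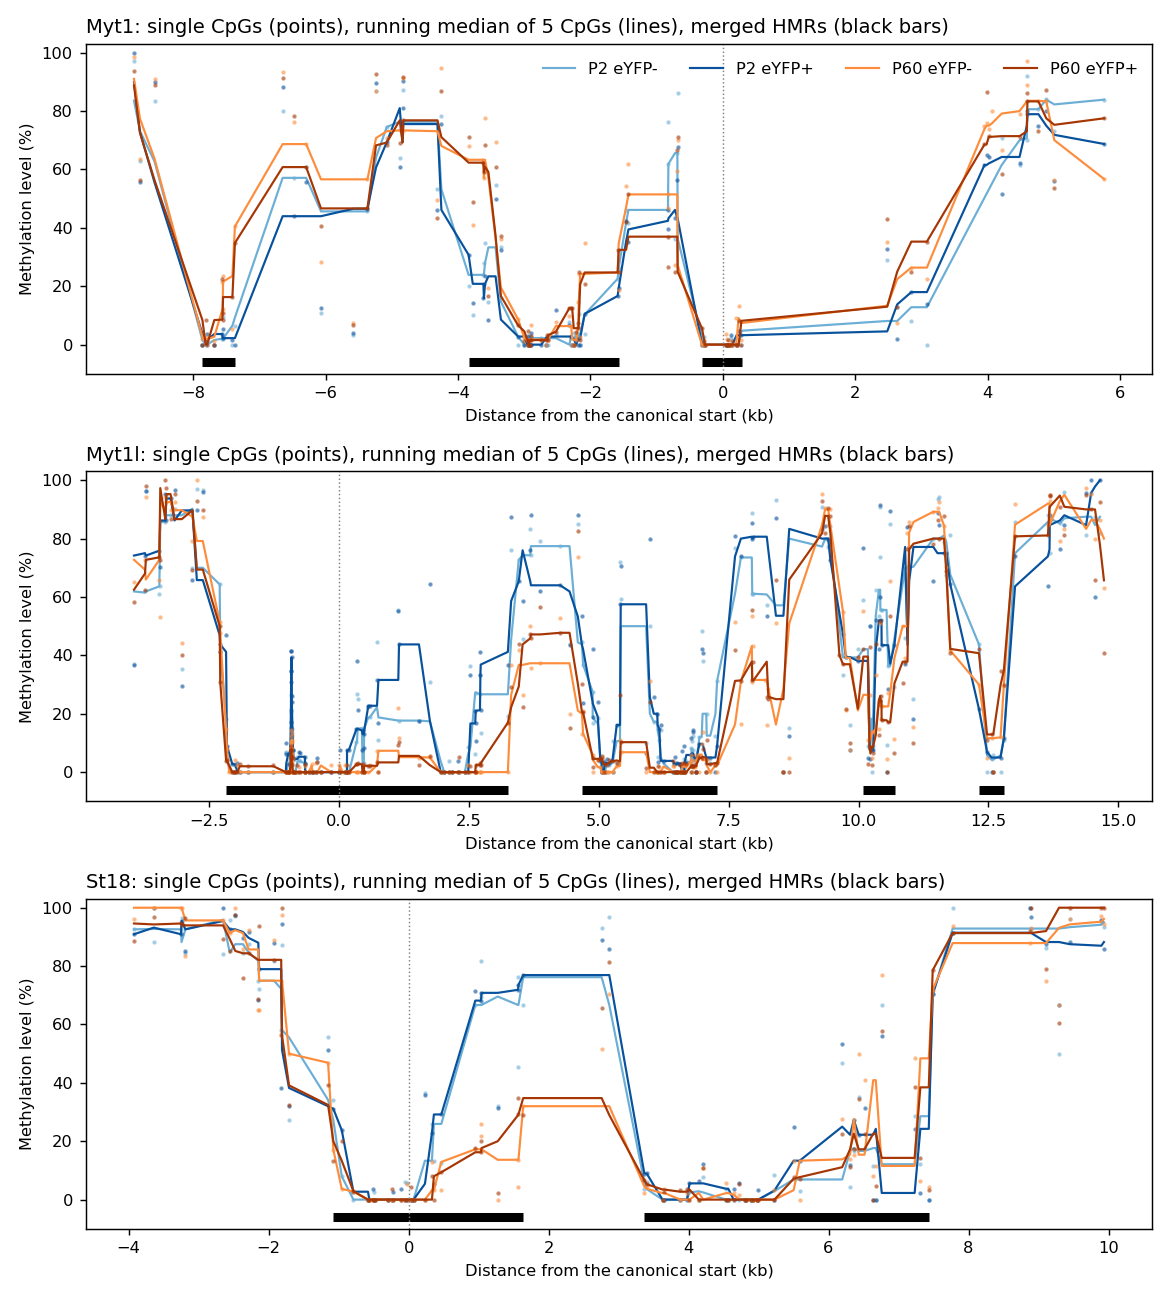
Methylation level of CpGs against distance from the canonical start (kb) around the starts of Myt1, Myt1l and St18 in the 4 pools. The St18 low region ends near the start at P2 and reaches past +1 kb at P60, the Myt1l start is lower at P60, and the left edge of the upstream Myt1 HMR is higher at P60.

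The libraries showed the same edges. The share of each merged HMR that the HMRs of a library covered was compared, with no test, by whether the P2 and P60 libraries overlapped. At the St18 start this share was 52.5% and 52.5% in P2 eYFP- and 42.4% and 56.9% in P2 eYFP+ libraries. At P60 it was 100%, 95.6%, 95.6% and 97.3% in eYFP- and 100%, 100%, 97.3% and 100% in eYFP+ libraries. All 8 P60 libraries thus lay above all 4 P2 libraries. The Myt1l HMRs at +5.98 kb (63.5% to 90.9% at P2, 92.1% to 100% at P60) and at +22.7 kb (89.7% in all P2 libraries, 93.9% to 100% at P60) were the others of this kind. Thus 3 of 29 lay above, against 0.458% of all merged HMRs. Below the P2 range lay 4 of 29, against 14.9% of all merged HMRs.

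Of those 4, the upstream-start HMR of Myt1 was covered to 99.3% and 78.5% in P2 eYFP- and 97.2% and 100% in P2 eYFP+ libraries. At P60 the share was 41.4%, 44.4%, 77.8% and 67.0% in eYFP- and 44.4% in each of the 4 eYFP+ libraries. The highest P60 library, eYFP- replicate 3, lay just below the lowest P2 library, eYFP- replicate 2. The Myt1 HMR at -7.61 kb (100% at P2, 92.3% at P60 in every library), the Pxdn start (100% at P2, 67.9% to 83.0% at P60) and the Myt1l HMR at +393 kb (100% at P2, up to 88.1% at P60) made up the rest. The canonical Myt1 start was covered to 100% in all 12 libraries. No HMR of the 29 was present in every library of one stage and absent from every library of the other, as 5.33% of all merged HMRs were.

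**Figure D3:**
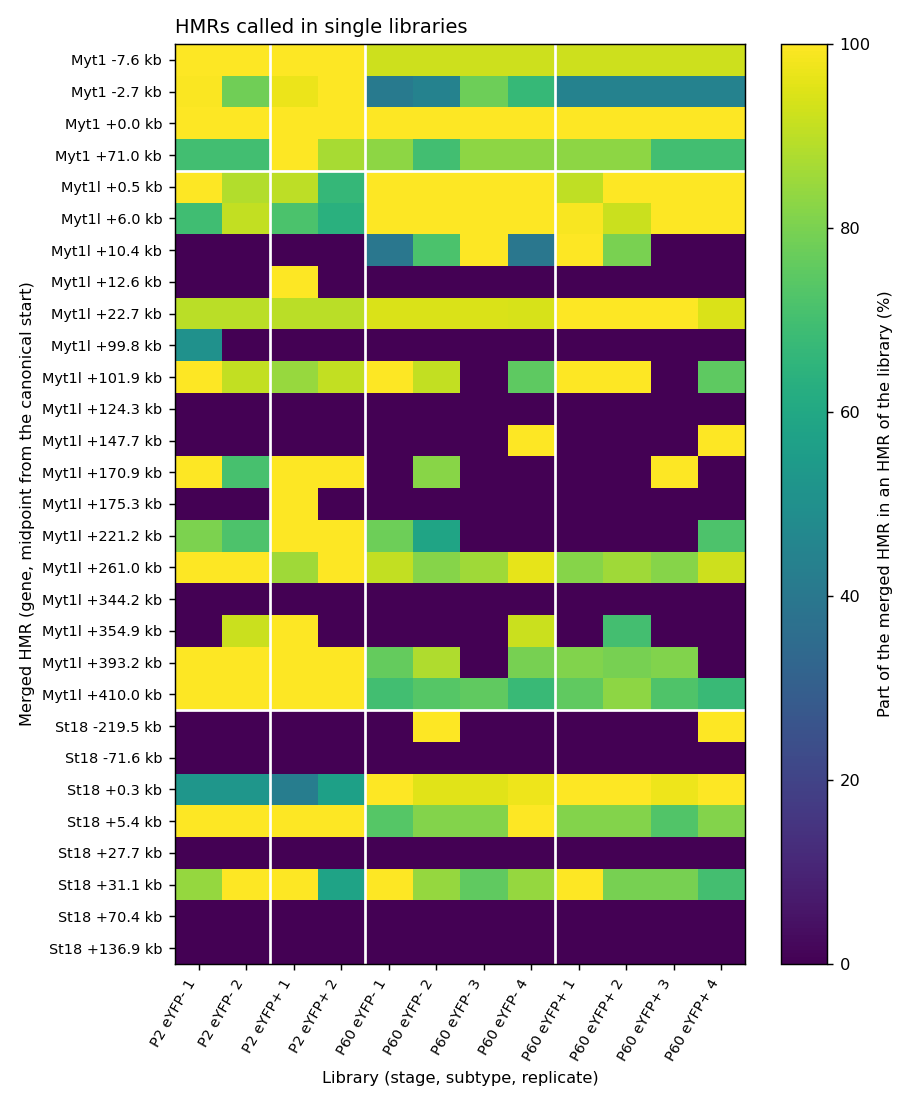
Heat map of the share of each of the 29 merged HMRs that the HMRs of each of the 12 libraries covered. Each row is 1 merged HMR, named by gene and distance of its middle from the canonical start (kb), and each column 1 library. The share at the St18 start is 42.4% to 56.9% in P2 and 95.6% to 100% in P60 libraries. At the upstream Myt1 start it is lower at P60.

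Over whole windows the HMR cover of each library, the percentage of the window inside its HMRs, allows a test over libraries. For Myt1 it was 4.16% and 3.71% in P2 eYFP-, 4.67% and 4.41% in P2 eYFP+, 3.05%, 2.93%, 3.84% and 3.60% in P60 eYFP-, and 3.13%, 3.11%, 2.93% and 2.93% in P60 eYFP+ libraries. The stages overlapped in 1 P60 library, eYFP- replicate 3. The mean was 4.24% ± 0.409 (SD, n = 4) at P2 and 3.19% ± 0.343 (SD, n = 8) at P60, and it fell by 1.05 percentage points (two-sided exact permutation test, p = 0.00404, adjusted p = 0.0116 over all genes). For St18 it was 1.58% and 1.63% in P2 eYFP-, 1.56% and 1.55% in P2 eYFP+, 1.87%, 1.78%, 1.66% and 2.02% in P60 eYFP-, and 1.76%, 1.70%, 1.75% and 1.77% in P60 eYFP+ libraries. The means were 1.58% ± 0.0349 (SD, n = 4) and 1.79% ± 0.113 (SD, n = 8). Every P60 library lay above every P2 library, and the cover rose by 0.206 percentage points (exact permutation p = 0.00606, adjusted p = 0.0161). These tests take the 8 P60 libraries as separate, although same-numbered libraries of the subtypes deviated together. With the P60 libraries of a number averaged to 1 value, a replicate block added after seeing the data, the calls at Myt1 and St18 ended (exact permutation p = 0.0286 each, the smallest this design allows, adjusted p = 0.0675), as did those of all other windows. For Myt1l the libraries ranged from 2.57% to 3.12% at P2 and from 2.83% to 3.32% at P60, so the stages overlapped. The means were 2.91% ± 0.240 (SD, n = 4) and 3.08% ± 0.159 (SD, n = 8), a difference of +0.166 percentage points that was not called (exact permutation p = 0.180, adjusted p = 0.295).

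HMR cover was lower at P60 in most of the genome, with a median gene at -0.464 percentage points. Of all gene windows 45.1% were called lower and 0.961% higher at P60. The difference at Myt1 was below that of the median gene and those at Myt1l and St18 were above it. When cover was scaled to the total autosomal HMR cover of each library, the median gene moved to +0.159. Of all 21757 windows 8620 (39.6%) were then called, 6303 of them higher at P60. On that scale Myt1 was at -0.144 (exact permutation adjusted p = 0.791), Myt1l at +0.863 (adjusted p = 0.00794) and St18 at +0.594 (adjusted p = 0.00794). Libraries were left out on the unscaled cover only. There the St18 call ended without P2 eYFP- replicate 1, P2 eYFP+ replicate 1 or P2 eYFP+ replicate 2 (exact permutation adjusted p = 0.0547 to 0.0708), where fewer regroupings were possible.

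**Figure D4:**
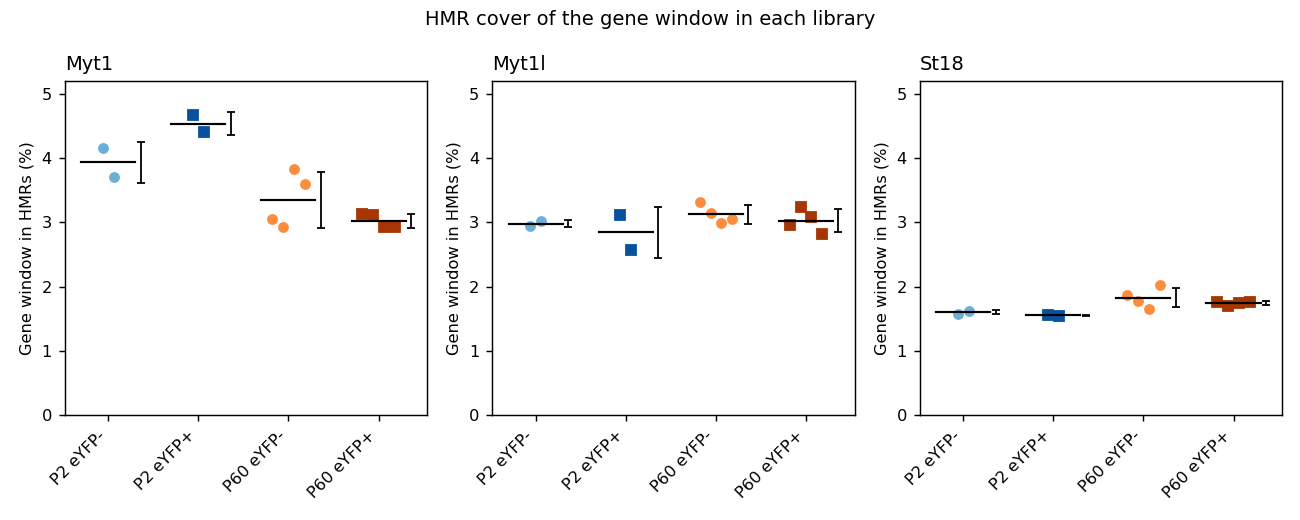
Percentage of the Myt1, Myt1l and St18 windows covered by HMRs in each library, by stage and subtype, with the mean and SD of each group. P60 libraries sit lower than P2 libraries at Myt1, with 1 exception, overlap them at Myt1l and lie above them at St18.

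Promoters, read as 1 kb either side of the canonical start, gave the same directions at Myt1l and St18. The Myt1l promoter (49 CpGs) was at 8.36% and 12.2% at P2 and at 2.53% and 1.71% at P60, and in eYFP+ cells it fell by 10.5 percentage points (Fisher's exact test, adjusted p = 1.54e-32). In eYFP- cells its difference was -5.84 percentage points. The St18 promoter (21 CpGs) was at 7.01% and 8.28% at P2 and at 2.14% and 2.95% at P60, differences of -4.87 and -5.34. The Myt1 promoter (19 CpGs) lay between 14.3% and 15.5% in all pools. Thus 0 of 3 promoters were called in eYFP- cells (background 2.75% higher and 3.2% lower) and 1 of 3, lower, in eYFP+ cells (2.54% higher and 5.24% lower).

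Outside HMRs the gene bodies were methylated. Myt1 was at 73.3% and 73.8% at P2 and 75.9% and 75.1% at P60, Myt1l at 78.6% and 78.3%, then 81.6% and 80.6%, and St18 at 79.9% and 80%, then 83.2% and 82.0%. All 6 stage differences were between 1.34 and 3.29 percentage points, and none was called (background 1.19% higher and 2.79% lower in eYFP-, 1.05% and 5.26% in eYFP+ cells).

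Single CpGs were tested likewise where each pool compared had 10 or more reads, with adjustment over all such CpGs. In eYFP- cells 10 CpGs of the Myt1 window rose and 0 fell, 30 rose and 7 fell at Myt1l, and 14 rose and 5 fell at St18, of 560, 3061 and 1954 tested (background 0.658% higher and 0.0657% lower). In eYFP+ cells 11 rose and 1 fell at Myt1, 27 rose and 14 fell at Myt1l, and 7 rose and 5 fell at St18 (background 0.619% and 0.104%). CpGs called in both subtypes, 4 at Myt1, 8 at Myt1l and 5 at St18, moved in the same direction in both. These 4 are 40% of those called in eYFP- and 33.3% of those called in eYFP+ cells at Myt1, against 21.6% and 19.5% for the 8 at Myt1l and 26.3% and 41.7% for the 5 at St18.

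Ranges were then set around the starts, after seeing the values, so the counts inside them are a description. From -4 to +15 kb of the Myt1l start 6 CpGs fell in eYFP- and 13 in eYFP+ cells and 0 rose, while elsewhere in that window 30 and 27 rose and 1 fell in each subtype. From -4 to +10 kb of the St18 start 2 and 4 fell and 0 rose, whereas elsewhere 14 and 7 rose and 3 and 1 fell. The 3 that fell in eYFP- cells, at chr1:6865406, chr1:6865418 and chr1:6865633 in an intron, had 94, 115 and 135 reads at P60 and 43, 47 and 36 at P2. Around them the median depth over 7 CpGs was 94 reads in P60 eYFP- and 30 in P60 eYFP+ cells, and the part of depth in these calls was not tested. At Myt1 rises were found in both places: from -9 to +6 kb of the start 6 and 7 rose and 0 fell, and elsewhere 4 rose in each subtype and 1 fell, in eYFP+ cells. The 6 in eYFP- cells were the last CpG of the -7.61 kb HMR and 5 CpGs of the upstream-start HMR, at chr2:181404969, chr2:181405032, chr2:181405193, chr2:181405217 and chr2:181406722. They stood at 3.77% to 34.8% at P2 and at 34.7% to 77.6% at P60. The others called there, at chr2:181424904, chr2:181429002, chr2:181457254 and chr2:181487564, lay outside HMRs and went from 27.3% to 60.6% at P2 to 66.7% to 94.3% at P60. Next to the most upstream St18 start, the CpG at chr1:6557895 rose from 25.3% to 86.7% in eYFP- and from 20% to 92.3% in eYFP+ cells. It had 91 and 105 reads at P2, where the local medians were 32 and 35.5, and the part of depth in its call was not tested.

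The comparison of eYFP+ with eYFP- cells asked whether the lineage defined by Myt1 itself differed in methylation at the family's genes. Which pool is which subtype was inferred, so the directions below rest on that reading. No HMR of the 29 was called at P2 (background 1.38%) or at P60 (0.824%). By Fisher's exact test 2 HMRs at P2 and 1 at P60 had an unadjusted p under 0.05. On spaced CpGs the count of 0 says nothing of the members, since 0 of 86539 HMRs were called at P2 and 3 of 87065 at P60. The median difference of the 29, eYFP+ minus eYFP-, was +1.11 percentage points at P2 and +0.31 at P60, against +0.200 and -0.105 over all HMRs.

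At P2 the Myt1l start HMR was the 1 of 29 with an adjusted p under 0.05 at any size of difference, a share near that over all HMRs (2.43%), and at P60 there were 0 (2.18%). Its P2 level was 13.7% in eYFP+ and 8.79% in eYFP- cells, a difference of 4.93 percentage points (Fisher's exact adjusted p = 2.09e-04), which was under the 10 required. Without the run of 7 adjacent CGs, where the levels were 34.7% and 16.7%, the difference was 3.88 (Fisher's exact adjusted p = 0.0069). On spaced CpGs it was 2.90 (Fisher's exact adjusted p = 0.868). At P60 the levels were 2.10% and 2.5%. Beside it stood the promoters of islet hormones at P2: Ins2 was at 21.9% in eYFP+ and 11.8% in eYFP- cells (Fisher's exact adjusted p = 0.00783), Ins1 at 43.3% and 32.5% (adjusted p = 0.0634) and Sst at 23.8% and 18.2% (adjusted p = 0.0251). The other hormones had Fisher's exact adjusted p-values of 0.706 to 1.00, with differences, eYFP+ minus eYFP-, of -2.92 percentage points at Iapp, -2.79 at Ppy and -0.12 at Gcg. Of the 14 marker promoters of other cell types Sst alone had an adjusted p under 0.05, 0 were called, and the differences ran from -4.81 to +5.60 percentage points. The part of any mixture of cells or of libraries in the Myt1l difference was not tested.

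The largest other subtype differences of each gene had adjusted p-values above 0.05. At P2 they were at +344 kb of Myt1l (21.9% in eYFP+ against 14.4% in eYFP- cells), at the Pcmtd2 start (1.25% against 2.61%), at -71.6 kb of St18 (13.3% against 9.43%) and at +31.1 kb of St18 (16.5% against 19.3%). At P60 the HMRs of Myt1l at +12.6 kb (23.4% against 15.4%) and +171 kb (24.2% against 18.9%) and those of St18 at -71.6 kb (27.6% against 23.5%) and +70.4 kb (16.9% against 13.6%) led. Those at +12.6 kb and +171 kb were HMRs in the P60 eYFP- pool and not in the P60 eYFP+ pool. That at -71.6 kb of St18 was so at P2. These directions are tied to how the regions were picked. At Myt1 the upstream-start HMR differed by -1.85 percentage points at P60, and by +0.17 when only P60 pools were merged.

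Other readings of the subtypes gave no call either. Of single CpGs 0 were called at P2 (background 1.04e-05%) and 0 at P60 (5.05e-06%) in the 3 windows. At an unadjusted Fisher's p under 0.05 there were 24 of 559, 92 of 3060 and 50 of 1933 CpGs at Myt1, Myt1l and St18 at P2, or 4.29%, 3.01% and 2.59% against 2.72% of all CpGs tested. At P60 there were 24 of 575, 99 of 3214 and 87 of 1992, or 4.17%, 3.08% and 4.37% against 3.42%. Promoters (background 0.171% at P2 and 0.0923% at P60) and gene bodies (0.061% and 0.0469%) had 0 calls of 3. The Myt1l promoter at P2 was higher in eYFP+ cells by 3.82 percentage points (Fisher's exact adjusted p = 0.0420), the 1 of 3 with an adjusted p under 0.05 at any size (background 2.44% higher and 0.954% lower). At P60 0 promoters of 3 had one (2.8% and 1.57%), and at P2 0 gene bodies of 3 (6.44% and 0.432%). Gene bodies at P60 ran the other way. That of Myt1l was at -1.04 percentage points (Fisher's exact adjusted p = 7.05e-08), that of St18 at -1.18 (adjusted p = 2.19e-06) and that of Myt1 at -0.77 (adjusted p = 0.233), eYFP+ minus eYFP-. These 2 of 3 lower at an adjusted p under 0.05 stand against 18.9% of all gene bodies lower and 0.469% higher in eYFP+ cells. Regions inside the HMRs of one pool but outside those of the other, at least 50 bp long with 2 CpGs that differed, as the study required, numbered 0 in the windows. There 14 candidates at P2 and 15 at P60 had at most 1 such CpG, while 7.4% and 6.21% of all candidates in the genome passed.

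Libraries of the subtypes also overlapped. At P60 no merged HMR of the 29 had all eYFP+ libraries above (background 0.307%) or below (0.203%) all eYFP- libraries. At P2, with 2 libraries each, the cover was 100% in both eYFP+ and 80.4% and 71.9% in the eYFP- libraries at +221 kb of Myt1l, and 100% and 86.8% against 69.8% in both at the Pcmtd2 start. These are 2 of 29 above (background 7.96%) and 0 below (4.85%). Presence separated the subtypes at 0 of 29 HMRs at P60 (background 0.0365%) and at P2 (2.5%). Over whole windows at P60 the mean cover in eYFP+ and eYFP- libraries was 3.03% ± 0.111 and 3.35% ± 0.436 at Myt1, 3.03% ± 0.177 and 3.13% ± 0.146 at Myt1l and 1.74% ± 0.0317 and 1.83% ± 0.154 at St18 (SD, n = 4 each). Two-sided exact permutation p-values were 0.343, 0.457 and 0.343, each with an adjusted p of 1. No window of any gene was called (0%), although 344 of 21757 had an unadjusted p under 0.05. At P2 the smallest p that 2 against 2 libraries allow is 0.333, and the share called was 0% as well.

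Read depth at Myt1 was uneven, and lay above that of most genes at P2. The mice carry a Myt1cCre allele, and the sources used here do not describe its construct. Depth was taken as the median reads per CpG over the median in flanks 50 to 250 kb away, in segments set after seeing the values. From 15 kb upstream to the most upstream start, a stretch with the -7.61 kb HMR, the ratio in eYFP- and eYFP+ cells was 2.22 and 2.33 at P2, then 1.86 and 1.85 at P60. The upstream-start HMR, which spans that start, had a mean of 42.0 and 38.7 reads per CpG at P2, where the flank medians were 25 and 24. At P60 it had 73.1 and 71.5, with flank medians of 56 and 54. From -42.5 to -27.5 kb the ratio was 2.00 and 2.08 at P2 and 1.82 and 1.89 at P60. Between these segments, from -25 to -17.5 kb, the median over 69 CpGs was 0 reads in 3 pools and 1 read in P60 eYFP- cells, a gap that reaches into the Myt1 window. From -80 to -42.5 kb the ratio was 1.04 to 1.11 in the 4 pools. Over the first 52.5 kb of the gene it was 1.56 and 1.71 at P2 and 1.21 and 1.30 at P60, and over the last 12 kb 0.920 and 1.17, then 0.821 and 0.806. Among 17685 genes the Myt1 gene body ratio exceeded that of 99.1% and 99.4% in the P2 pools, and of 79.9% and 91.3% in the P60 pools. At Myt1l it was 1.04 in both P2 pools and 0.907 and 0.886 at P60, and at St18 1.04 and 1.08, then 0.773 and 0.761. At P60 only 4.56% and 4.02% of genes had a lower ratio than St18. The part of this depth in the Myt1 levels was not tested, and reads of the allele and of the native locus cannot be told apart in these counts.

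**Figure D5:**
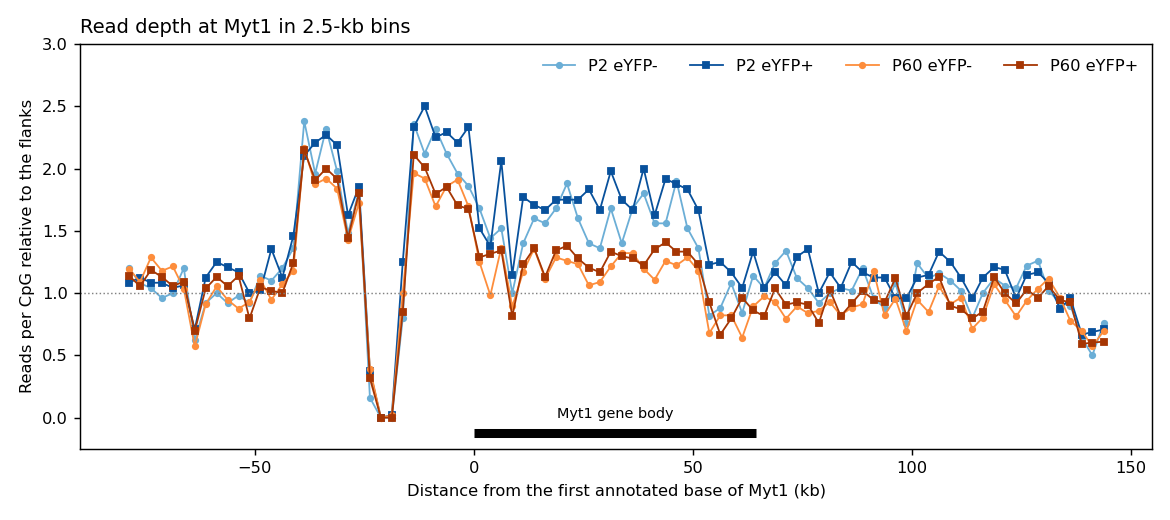
Median reads per CpG relative to the flanks against distance from the most upstream start of Myt1 (kb) in the 4 pools. Medians are 1.82 to 2.33 from -42.5 to -27.5 kb and from -15 kb to the start, close to 0 in the gap from -25 to -17.5 kb, 1.04 to 1.11 beyond -42.5 kb and 0.806 to 1.17 at the 3' end of the gene.

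Genes that work with the family were read at their promoters, from lists chosen for their roles. Of 14 islet transcription factors 0 promoters were called in any of the 4 comparisons, and of 7 genes for corepressors and Hes1 also 0. The islet list had a median stage difference of +0.469 percentage points in eYFP- cells and of +0.125 in eYFP+ cells, and that of the second list -0.402 and -0.210, against -0.164 and -0.358 over all genes. Neurog3 was at 6.93% and 6.86% at P2 and at 9.71% and 11.5% at P60. Pax4, which favours β over α fate, was at 50.6% and 53.8% at P2 and at 56.7% and 54.1% at P60. Insm1, a zinc-finger regulator of endocrine differentiation, was at 0.944% and 1.46% at P2 and at 3.01% and 3.88% at P60, and Rfx6 was at 2.74% and 3.82%, then 0.982% and 1.74%. Of the second list, Hdac2, a histone deacetylase, was at 4.32% and 4.94% at P2 and at 2.71% and 2.96% at P60, and Kdm1a, which encodes LSD1, at 5.85% and 6.78%, then 4.38% and 5.30%. Hes1 lay between 0.676% and 1.49% and Sin3b between 11.0% and 11.7% in all pools. In gene bodies outside HMRs, 7 islet factors had reads and 1 rose in each subtype (background 1.19% in eYFP- and 1.05% in eYFP+ cells). Neurog3, over 13 CpGs, rose from 42.3% to 58.5% in eYFP+ cells (Fisher's exact adjusted p = 1.82e-06) and differed by +6.54 percentage points in eYFP- cells (adjusted p = 0.0932). Nkx2-2, over 8 CpGs, rose from 54.5% to 67.8% in eYFP- cells (Fisher's exact adjusted p = 0.00749) and differed by +8.18 in eYFP+ cells (adjusted p = 0.126).

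Motif letters were counted on both strands in the central 300 bases of each HMR. AAAGTTT, the core that MYT proteins bind, was in 2 of 29 HMRs, at the upstream Myt1 start and the St18 start, against 4.61% of all merged HMRs. TGTTTAC, of FOXA factors, was in 6 of 29 against 7.79%, and CAGATG, an E-box of NEUROD and NEUROG factors, in 10 of 29 against 25.3%. The printed St18 stretch held 2 matches to AAAGTTT. A match is a string of letters and not a bound site.

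The genes whose HMR cover ran most like each member over the 12 libraries were also listed, as a description, since stage alone separates many windows. For Myt1 they were Lipe, Copz2 and Slc35b2 (Pearson's r of 0.95 each). For Myt1l they were Calcr, Zfp69 and Chrna6 (0.851, 0.798 and 0.794), and for St18 Ins1, Tmem65 and Eif2a (0.932, 0.858 and 0.843). All points share their library, and 17143 genes were compared.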

How the data were processed

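Transposase-based whole-genome bisulfite sequencing was applied to FACS-sorted β cells. The authors trimmed reads (Trim Galore 0.6.6, cutadapt 1.16), mapped them with abismal to the mm39 build, and counted reads and called HMRs per library and per pool with SAMtools 1.5 and MethPipe (version not given in the sources used here). The authors deposited counts of methylated and unmethylated reads per CpG for pools of each subtype and stage, and HMR coordinates. Pool columns B1 and B2 were read as eYFP- and eYFP+, a reading inferred from counts of differing regions, since no label names them. The deposited probability scores and tables of regions differing between subtypes hold the study's own comparison and were not used: the gate was rebuilt from counts and HMRs (probability of a higher level under 0.05 or over 0.95).

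All CpGs listed for chromosomes 1, 2 and 12 stood at a CG of GRCm39. HMRs of the 4 pools were merged where they overlapped. Fisher's exact tests (two-sided) compared levels, and exact permutation tests compared HMR cover of gene windows over libraries, each adjusted by Benjamini-Hochberg over all features (Python 3.11.15, numpy 2.4.6, pandas 2.3.3, numba 0.67.0). HMRs of each gene were named if within 500 bp of a start, widest, among the 3 largest stage or the 2 largest subtype differences with at least 5 CpGs and 10 reads per CpG, single CpGs if 10 or fewer were called, up to 4 genes of each list by largest promoter difference, and the 3 genes whose window cover correlated best with a member's. The members and lists were chosen with earlier results of these data known. The scripts' tests were tested on simulated data. Each library pools mice, so p-values over libraries measure the spread between these libraries, which may be technical. The replicate block took same-numbered libraries of the subtypes as pairs. At P60 HMR cover over 84472 autosomal HMRs deviated together in same-numbered libraries (correlations 0.150, 0.204, 0.309 and 0.140). Libraries of different number but the same labelled sex also did (0.0103 to 0.232), while those of different sex had -0.261 to -0.0546, so the number is not singled out from sex. At P2 the correlation was 0.014, so that numbers there are only names. Alternatives were other call thresholds, read minimums, HMR lengths, merges, promoter widths, scaling, a replicate block, leaving out each library and CpGs at least 100 bp apart. Some sequence is not reported here.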

Additional observations from a re-analysis of the deposited data

Results flagged for a closer look

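In groups of 4 P60 libraries, 1 library can stand apart from the other 3. For values without ties, chance alone marks about 1 in 20 such groups. Where 3 covers of a group are equal and 1 differs, the rule always marks it. Many groups here held such ties, so the count below cannot be set against that rate. Of 26 groups, which took in merged HMRs and whole gene windows, 11 were marked, all of them of merged HMRs. In eYFP- cells the library that stood apart covered 69.8% of the Pcmtd2 start HMR (replicate 2, others 83.0%), 99.7% of the Myt1l start HMR (replicate 3, others 100%), 82.4% of the Myt1l HMR at +171 kb (replicate 2, absent in the others) and 0% of the Myt1l HMR at +393 kb (replicate 3, others 76.2% to 88.1%). In eYFP+ cells it covered 90.4% of the Myt1l start HMR (replicate 1, others 100%), 92.1% of the Myt1l HMR at +5.98 kb (replicate 2), 100% of that at +171 kb (replicate 3, absent in the others), 71.9% of that at +221 kb (replicate 4, absent in the others) and 0% of that at +393 kb (replicate 4). The other 2 were the St18 start HMR at 97.3% (replicate 3, others 100%) and the widest St18 HMR at 72.7% (replicate 3, others 81.4%), both in eYFP+ cells.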

How the results depend on the processing

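Levels have counting intervals and no replicate error, and 2 against 2 libraries cannot reach a p of 0.05. In P60 eYFP- cells the interval was 2.04% to 3.08% at the long Myt1l start HMR. At the short HMR at -71.6 kb of St18 it was 18.4% to 29.4%. Of 335 recomputed differences of single regions and promoters, 308 kept their direction and side of the threshold, 8 lost and 1 gained a call, and 18 changed sign; the causes were not tested. The count of called stage differences among the 29 HMRs went from 8 to 13 and 0 in eYFP- cells at thresholds of 5 and 20 percentage points, and from 10 to 1 in eYFP+ cells at 20. On spaced CpGs (chosen after seeing the data) all HMRs called for subtype went from 1199 to 0 at P2 and from 721 to 3 at P60. With promoters of 500 bp either side the count in eYFP+ cells went from 1 to 0 (Myt1l at -8.08).

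Subtype differences that changed sign on spaced CpGs were at P2 the Myt1 HMRs at -7.61 kb (+0.80) and -2.71 kb (+0.72) and the Myt1l HMR at +393 kb (-1.01), and at P60 the Myt1 canonical start (+0.53), the Myt1l HMRs at +0.535 kb (+0.0758), +221 kb (-5.34), +5.98 kb (-0.30) and +10.4 kb (+1.31) and the St18 HMR at +5.40 kb (-0.27). Stage differences that did so were those of the Pcmtd2 start (+1.5), the Myt1l HMR at +12.6 kb (-0.72) and the St18 HMR at +70.4 kb (-3.77) in eYFP- and the Myt1l HMR at +344 kb (+6.54) in eYFP+ cells. At P60 the upstream Myt1 start turned to +0.17 when HMRs of the pools compared alone were merged. At 500 bp promoters Myt1 (+0.0365) and St18 (-0.60) at P2 and Myt1l (+0.26) and St18 (-0.0586) at P60 turned.

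For window cover, the subtype difference of Myt1 at P60 turned to +0.134 with replicates 1 and 2 only. Leaving out each library gave -0.410 to +0.141 for Myt1l between subtypes at P2 (positive without eYFP+ replicate 2), and for the stage difference of St18 +0.173 to +0.225, with the calls lost that are named in the report. The stage difference of Myt1 was -0.144 when scaled, -1.18 with P60 replicates 1 and 2 only (exact permutation adjusted p = 0.0729) and -0.911 with replicates 3 and 4 only (adjusted p = 0.128). That of St18 was +0.195 and +0.217 in those subsets (exact permutation adjusted p = 0.0729 and 0.0739), and that of Myt1l was +0.863 when scaled. With the replicate block, the paired differences between subtypes were -0.328 at Myt1, -0.0970 at Myt1l and -0.0893 at St18 at P60 (exact permutation p = 0.5, 0.5 and 0.375, smallest possible 0.125) and +0.606, -0.135 and -0.0490 at P2 (smallest possible 0.5), and it changed no call there. For the stage differences, averaging P60 libraries of the same number (chosen after seeing the data) left -1.05 at Myt1 and +0.206 at St18, neither still called (exact permutation adjusted p = 0.0675), with 0 of all windows called.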
